A study of Mus musculus with 9 samples.

Results

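Adipose stromal cells (ASCs) of the mouse mammary gland were examined for 10 immediate early transcription factors, which are Fos, Fosb, Fosl1, Fosl2, Jun, Junb, Jund, Egr1, Egr2 and Atf3. They were taken by name as the probe sets annotated to exactly 1 of these symbols, and they are 10 of the 19930 genes of the array, each with 1 probe set. Immediate early genes are transcribed within minutes of a growth factor, a stress or a mechanical stimulus, without new protein synthesis, and their RNAs are mostly short-lived. FOS and JUN proteins pair through leucine zippers into the activator AP-1, the EGR proteins bind GC-rich sites through zinc fingers, and ATF3 is a stress-induced factor that pairs with JUN proteins and often represses. In the mammary gland AP-1 members are known as early response genes of involution and as regulators of matrix-degrading enzymes in fibroblasts.

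All animals were female Balb/c mice with no introduced allele. ASC-Ns came from 8-week-old nulliparous mice kept away from males, ASC-Ls from day 5 of lactation and ASC-Is from day 3 of involution, the regression of the gland after milk removal stops. Each stage was measured on 3 Affymetrix Mouse Gene 1.0 ST arrays, and the values are log2 signals. The sample labels describe stroma separated from digested glands by centrifugation, whereas the methods describe low passage cultures grown from them, and neither says which mice lie behind an array. P-values therefore measure the spread between these preparations. In such bulk samples fewer cells of a type and less RNA per cell cannot be told apart.

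The stromal identity of the samples was visible in the mean of its markers, but the adipocyte identity was not. The mean of fibroblast and stromal markers (9 of 9 measured) ranged from 11.12 in ASC-L 2 to 11.96 in ASC-L 3. Among them Col1a1, a fibrillar collagen of fibroblasts, measured 12.63 to 13.36 in the 9 arrays. Others varied more, with Lum at 4.62 in ASC-I 1 and 9.06 in ASC-L 3, and Pdgfra at 8.86 in ASC-L 2 and 11.44 in ASC-I 3. The adipocyte markers Adipoq (3.82 to 4.41), Lep (3.88 to 4.31) and Plin1 (5.64 to 5.99) lay near or below the array medians of 5.93 to 6.0. The mean of all adipocyte markers (8 of 9 measured) ranged from 5.45 to 5.61. It includes Fabp4 and Lipe, whose single values are not given here. Other cell types differed between arrays. The mean of luminal epithelial markers (14 of 15 measured) was 8.62 in ASC-L 2 and 7.44 in ASC-I 2, and no other array lay outside 5.68 to 6.91. ASC-L 2 and ASC-I 2 are called the epithelial-rich arrays below, and they were singled out by earlier results of these data. The luminal mean was also 6.91 in ASC-N 1 and 6.77 in ASC-N 2, against 5.68 in ASC-N 3. Leaving out the epithelial-rich arrays therefore does not remove all differences in epithelial signal. The mean of macrophage markers (16 of 16 measured) ranged from 6.09 to 8.2 in ASC-Ns, from 6.42 to 6.76 in ASC-Ls and from 7.21 to 8.96 in ASC-Is.

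Promoters of the members are shown first because the genes are known for compact promoters that read signalling directly. RefSeq windows of GRCm38.p6, from 250 bases before to 50 bases after an annotated start, were found for 8 of the 10 members, and Egr1 and Fosl1 were not among them. The 12 windows were searched on both strands for 5 motifs. These were the CArG box bound by serum response factor, the cAMP response element TGACGTCA, the AP-1 site TGANTCA, the TATA box TATAAA and the EGR site GCGGGGGCG. The 4 windows printed below are those of the members whose signals differed most between arrays within a stage, Fos, Fosb and Egr2, with Fosl2, the closest partner of Fos in these arrays. The matched motif is in capitals.
Fos, chr12:85473640-85473939, plus strand: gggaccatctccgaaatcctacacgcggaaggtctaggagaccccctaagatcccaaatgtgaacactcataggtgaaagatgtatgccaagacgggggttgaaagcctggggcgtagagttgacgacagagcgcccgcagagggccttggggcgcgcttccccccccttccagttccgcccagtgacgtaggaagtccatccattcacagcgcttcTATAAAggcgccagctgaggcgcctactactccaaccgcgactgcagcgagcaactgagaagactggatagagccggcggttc
Fosb, chr7:19309996-19310295, minus strand: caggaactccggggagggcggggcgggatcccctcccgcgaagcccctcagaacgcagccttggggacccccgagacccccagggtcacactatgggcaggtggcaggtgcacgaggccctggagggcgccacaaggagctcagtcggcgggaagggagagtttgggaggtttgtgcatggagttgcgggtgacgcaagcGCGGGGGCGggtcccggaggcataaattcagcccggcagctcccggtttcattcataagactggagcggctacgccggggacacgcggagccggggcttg
Fosl2, chr5:32136222-32136521, plus strand: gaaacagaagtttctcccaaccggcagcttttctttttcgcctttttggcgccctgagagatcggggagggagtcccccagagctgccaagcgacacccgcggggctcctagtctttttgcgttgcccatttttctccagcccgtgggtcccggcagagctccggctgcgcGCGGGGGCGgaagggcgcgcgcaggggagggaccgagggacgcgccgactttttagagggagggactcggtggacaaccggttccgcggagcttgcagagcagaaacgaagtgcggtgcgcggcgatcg
Egr2, chr10:67537619-67537918, plus strand: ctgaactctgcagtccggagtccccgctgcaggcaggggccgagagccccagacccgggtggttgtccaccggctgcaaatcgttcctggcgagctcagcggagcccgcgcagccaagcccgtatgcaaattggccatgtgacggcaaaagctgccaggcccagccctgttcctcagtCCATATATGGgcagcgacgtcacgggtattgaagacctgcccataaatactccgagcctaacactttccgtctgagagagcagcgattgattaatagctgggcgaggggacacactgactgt

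The capitals mark a TATA box in Fos, whose first base lies at -33 from the start, an EGR site in Fosb at -50, an EGR site in Fosl2 at -79 and a CArG box in Egr2 at -72. A CArG box was found in 4 of the 5 windows of Egr2, some of which overlap, and in 1.63% of all 32851 windows. The EGR site stood in 2.91% of all windows and the TATA box in 13.6%. Junb also held a TATA box, at its annotated start. The cAMP response element (1.79% of all windows) and the AP-1 site (7.81%) were spelled out in none of the 12 windows, and Jun, Jund and Atf3 held none of the 5 motifs. These are matches of letters, and binding was not measured.

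The FOS proteins cannot pair with each other and act as the partners of JUN. Fos, the prototype of the family, measured 9.41, 9.44 and 10.37 in ASC-Ns 1 to 3. In ASC-Ls 1 to 3 it measured 9.28, 8.11 and 9.31. In ASC-Is 1 to 3 it measured 9.67, 8.82 and 10.62. Every ASC-L array lay below every ASC-N array, while ASC-I 2 fell within the ASC-L range. The stage means were 9.74 ± 0.54 in ASC-Ns, 8.90 ± 0.69 in ASC-Ls and 9.70 ± 0.90 in ASC-Is (SD, n = 3). In ASC-Ls Fos thus stood 1.79-fold below ASC-Ns (log2 difference -0.84, SE 0.49) and 1.75-fold below ASC-Is (-0.80, SE 0.49). The list of 10 names was chosen by a proposal that had the mean log2 signals of these stages in view, so stage values of the members are given as a description and carry no test.

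Fosb, which encodes a close relative of FOS and the shorter, stable form known as delta FOSB, spread the most. It measured 8.38, 7.96 and 10.34 in ASC-Ns 1 to 3. In ASC-Ls 1 to 3 its signal was 8.47, 7.84 and 8.71, and in ASC-Is 1 to 3 it was 9.05, 8.02 and 10.15. ASC-N 3 and ASC-I 3 stood more than 1 log2 unit above every other array, and replicate 2 was the lowest in every stage. The 3 stages overlapped. Fosb had a mean of 8.89 ± 1.27 in ASC-Ns, 8.34 ± 0.45 in ASC-Ls and 9.07 ± 1.06 in ASC-Is (SD, n = 3), and ASC-Ls stood 1.66-fold below ASC-Is (-0.73, SE 0.67).

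Fosl1 and Fosl2 encode the FOS-related antigens FRA1 and FRA2, which lack the strong activation domain of FOS. Fosl2 measured 9.33, 9.16 and 9.51 in ASC-Ns, 9.32, 8.61 and 9.16 in ASC-Ls and 9.30, 8.76 and 9.60 in ASC-Is, replicates 1 to 3 in order. Its lowest arrays, ASC-L 2 and ASC-I 2, were the epithelial-rich ones, and its highest were ASC-I 3 and ASC-N 3. Fosl1 measured 7.97, 7.92 and 8.50 in ASC-Ns, 7.96, 7.80 and 7.95 in ASC-Ls and 7.66, 8.21 and 8.48 in ASC-Is. For Fosl1 the ASC-Ls were tightly grouped (SD 0.09, n = 3), and the ASC-Is spanned nearly its whole range.

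**Figure D1:**
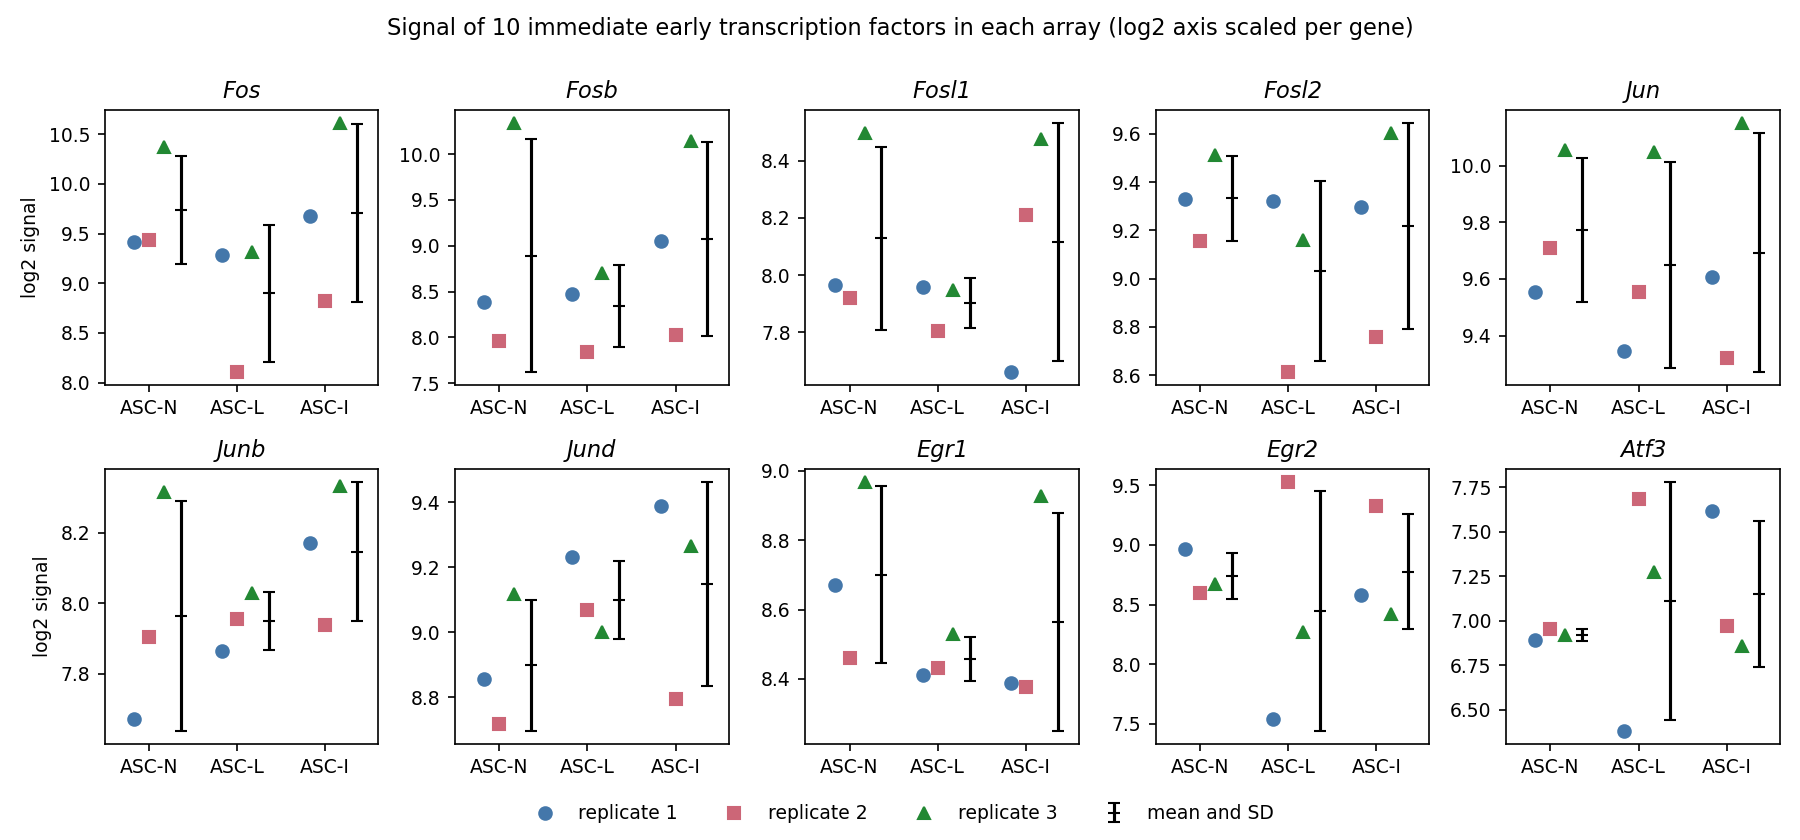
Log2 signal (vertical axis, scaled for each gene) of the 10 members by stage (horizontal axis), with a symbol for each replicate number and a bar for the mean and SD of the 3 arrays. For Fos and Fosb the replicate 3 points are the highest of each stage, while for Egr2 the ASC-L arrays span 7.54 to 9.53.

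JUN proteins can pair with each other or with FOS proteins. Jun, the main activating subunit, measured 9.56, 9.71 and 10.05 in ASC-Ns, 9.34, 9.55 and 10.05 in ASC-Ls and 9.61, 9.32 and 10.15 in ASC-Is. Replicate 3 was the highest of each stage at nearly the same level, and the stage means lay between 9.65 and 9.77. Junb, which can restrain JUN, measured 7.67, 7.90 and 8.32 in ASC-Ns, 7.86, 7.96 and 8.03 in ASC-Ls and 8.17, 7.94 and 8.33 in ASC-Is. Its ASC-Ls fell inside the range of the ASC-Ns. Jund, the member that is expressed most constantly in resting cells, measured 8.86, 8.72 and 9.12 in ASC-Ns, 9.23, 9.07 and 9.0 in ASC-Ls and 9.39, 8.79 and 9.26 in ASC-Is. Jund and Atf3 were the 2 members with their lowest mean in ASC-Ns, and Jund was 0.20 higher in ASC-Ls (SE 0.18) and 0.25 higher in ASC-Is (SE 0.18), with overlapping arrays.

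Egr1, a zinc finger factor induced by serum and growth factors, measured 8.67, 8.46 and 8.97 in ASC-Ns, 8.41, 8.43 and 8.53 in ASC-Ls and 8.39, 8.38 and 8.93 in ASC-Is. ASC-N 3 and ASC-I 3 were again the highest arrays, and the others lay between 8.38 and 8.67. Egr2, known for its part in myelination and in lymphocyte tolerance, measured 8.96, 8.59 and 8.67 in ASC-Ns and 8.58, 9.33 and 8.42 in ASC-Is. In ASC-Ls 1 to 3 it measured 7.54, 9.53 and 8.27, so that this stage held both the lowest and the highest array of all. The 2 highest Egr2 arrays were ASC-L 2 and ASC-I 2, in which Fosl2 was lowest.

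Atf3 was steady in ASC-Ns, at 6.89, 6.95 and 6.92. In ASC-Ls it measured 6.38, 7.69 and 7.27, and in ASC-Is 7.62, 6.97 and 6.86. Its SD within a stage was 0.03 for ASC-Ns, 0.67 for ASC-Ls and 0.41 for ASC-Is (n = 3). The ASC-L arrays lay on both sides of the ASC-Ns, and the highest array of ASC-Is was replicate 1, where no other member but Jund was highest.

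**Figure D2:**
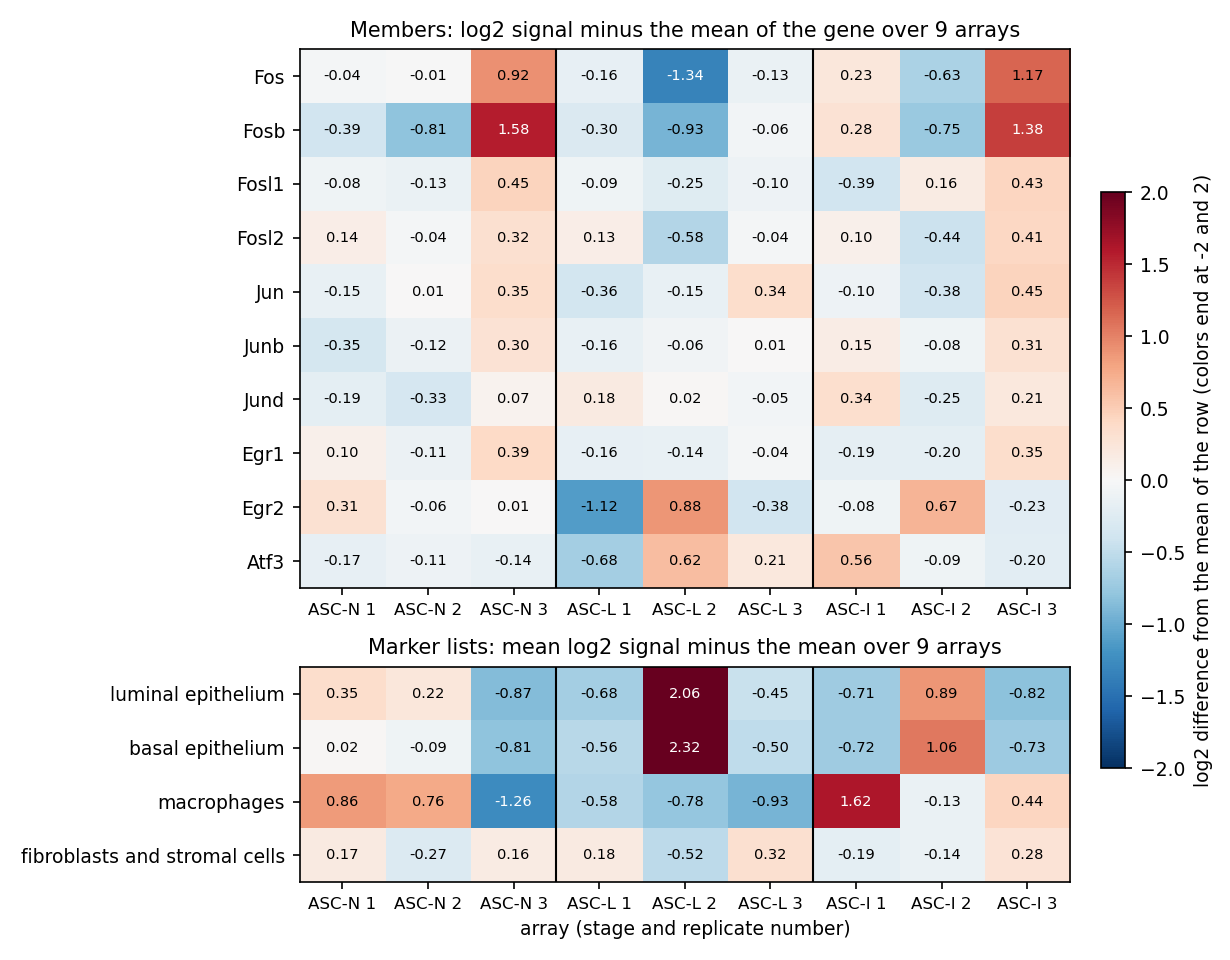
Log2 difference of each array (columns, stage and replicate number) from the mean of its row, for the 10 members (top) and for the mean of each marker list (bottom), with colors that end at -2 and 2. ASC-N 3 and ASC-I 3 are high for most members, and ASC-L 2 and ASC-I 2 are low for Fos and Fosl2 but high for Egr2 and for the epithelial lists.

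Set side by side, 8 of the 10 members had their lowest stage mean in ASC-Ls, 5 had the highest in ASC-Ns and 5 in ASC-Is. Against ASC-Ns, 8 of 10 members were lower in ASC-Ls, with a median log2 difference of -0.23, while 48.3% of all genes were lower and their median was 0.01. One of those 8, Junb (-0.01), turned higher under quantile and cyclic loess normalization. Against ASC-Is, all 10 were lower in ASC-Ls in the deposited values and under both of these normalizations, with a median of -0.19, while 48.0% of all genes were lower. Both comparisons use the same ASC-L arrays. Under at least 1 of 19 alternatives, such as leaving out an array, the sign changed for 5 of 10 members against ASC-Ns. It changed for 6 of 10 against ASC-Is, where Fosl2, Jun, Jund and Egr1 turned without ASC-I 3 alone. The members were proposed with these stage means in view, so nothing is read from these counts. Between ASC-Is and ASC-Ns, 5 of 10 were lower, the median was 0.01 and the members lay between -0.14 and 0.25.

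**Figure D3:**
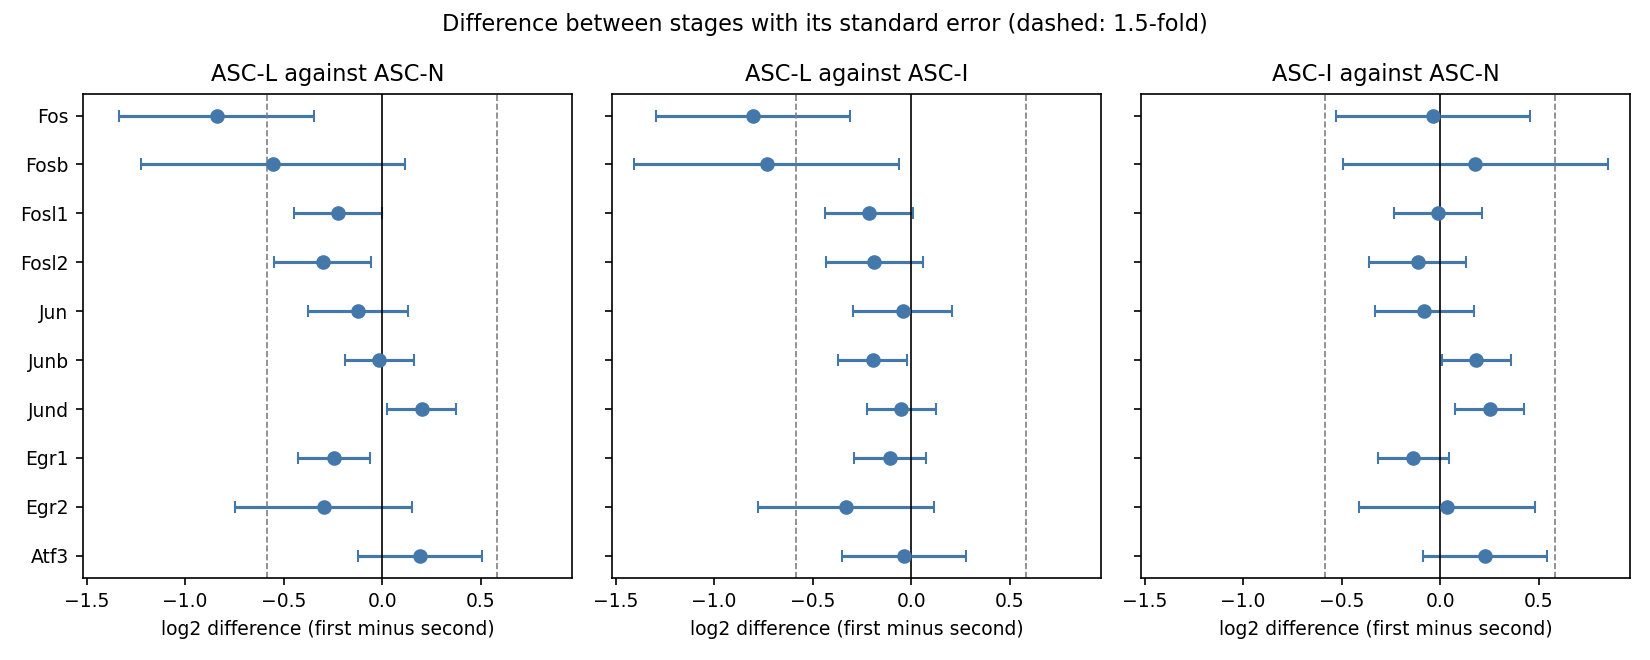
Log2 difference between stages (horizontal axis, first minus second) of each member, with its standard error from the linear model over 9 arrays and dashed lines at 1.5-fold. Fos lies at -0.84 against ASC-Ns and at -0.80 against ASC-Is, and Fosb at -0.73 against ASC-Is, and no other difference passes the dashed lines.

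The limits applied to all genes combined a limma p under 0.05, before adjustment, with a change of 1.5-fold or more. They were passed by 0.627% of genes for ASC-Ls against ASC-Ns, 0.482% for ASC-Ls against ASC-Is and 0.251% for ASC-Is against ASC-Ns. Of the members, 0 passed in each of the 3 comparisons, and 0 had an unadjusted p under 0.05, as 3.64%, 1.80% and 1.56% of all genes did. After Benjamini-Hochberg adjustment 0 of the 19930 genes had a p under 0.05. A difference of at least 1.5-fold, without a test, was reached by Fos alone against ASC-Ns (2.84% of all genes), by Fos and Fosb against ASC-Is (2.07%) and by no member between ASC-Is and ASC-Ns (1.15%). The arrays of both stages did not overlap for Fos between ASC-Ls and ASC-Ns (8.59% of all genes) and for no member in the other comparisons (5.56% and 6.54%). Since the members were chosen in view of these comparisons, nothing is read from these counts.

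Arrays of the same replicate number deviated together between ASC-Ls and ASC-Is, and the comparison was also made within numbers. Fos was lower in the ASC-L array in 3 of 3 pairs, with pair differences of -0.39, -0.72 and -1.30 (blocked difference -0.80, SE 0.24). Fosb was lower in 3 of 3 pairs, with -0.58, -0.18 and -1.44 (-0.73, SE 0.31). The block was fitted to all stages together, so the blocked SEs rest on the ASC-N arrays too. With this block 1.04% of all genes lay past the limits, and so did these 2 members, from which, as above, nothing is read. No other member was lower in 3 of 3 pairs. Fosl1, Fosl2, Jun, Junb and Jund were each lower in 2 of 3, and Egr1 in 1 of 3. For Egr2 the pair differences were -1.04, 0.20 and -0.15, and for Atf3 -1.24, 0.71 and 0.42.

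Single arrays moved some of these values. Without ASC-N 3 the difference of Fosb between ASC-Ls and ASC-Ns turned from -0.56 to 0.17, and without ASC-L 2 that of Fos shrank from -0.84 to -0.44. Leaving out ASC-I 3 brought Fos against ASC-Is to -0.35 and Fosb to -0.20, and leaving out ASC-I 2 brought Fos to -1.24. The difference of Egr2 rested on single ASC-L arrays. Without ASC-L 1 it was 0.16 against ASC-Ns and 0.12 against ASC-Is. Without ASC-L 2 it was -0.84 against ASC-Ns and -0.87 against ASC-Is. With the epithelial-rich arrays both left out, a choice made with earlier results known, Egr2 was -0.84 against ASC-Ns and -0.60 against ASC-Is. In the same fit Fos was -0.44 and -0.85, and Fosb -0.30 and -1.01. The count of members past the limits in these fits, from which nothing is read, was 1 for ASC-Ls against ASC-Is without ASC-I 2 (1.59% of all genes). It was 1 against ASC-Ns and 1 against ASC-Is without ASC-L 2 (0.617% and 0.492% of all genes) and without both epithelial-rich arrays (0.773% and 0.973%).

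Most of the variation of the members lay within stages. The share of the sum of squares between arrays that followed the stage was 30.0% for Fos, 25.6% for Jund, 21.0% for Egr1, 19.2% for Junb and 16.5% for Fosl2, above the median of 15.9% over all genes. It was below this median for the other 5 members, between 3.1% for Jun and 14.6% for Fosl1. The share that followed the replicate number was 57.2% for Fos, 72.3% for Fosb, 68.0% for Fosl2, 84.2% for Jun and 59.7% for Egr1, and it was above the median of 36.5% over all genes for 9 of the 10 members. Atf3 followed neither, with 85.9% left over. The SD within stages was 0.72 for Fos, 0.99 for Fosb and 0.66 for Egr2, larger than that of 96.0%, 98.3% and 95.0% of all genes.

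ASC-N 3 and ASC-I 3 were the 2 highest arrays for 7 of the 10 members, Fos, Fosb, Fosl1, Fosl2, Jun, Junb and Egr1. The same held for 7.0% of all genes. Replicate 3 was the highest array in all 3 stages for Fos, Fosb, Jun, Junb and Egr1, and for 7.96% of all genes. The mean of the members, each centered on its own mean, was 0.42 in ASC-N 3 and 0.43 in ASC-I 3 and lay between -0.27 and 0.09 in the other 7 arrays. The macrophage marker mean was lowest of all arrays in ASC-N 3, at 6.09, and was 7.78 in ASC-I 3, and the luminal mean was 5.68 there and 5.73 in ASC-I 3. The part of the cell types in these arrays was not tested.

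Members were then compared with each other by the correlation of their deviations from the stage means over the 9 arrays. These are descriptions without a test, since the values come from the same arrays and after removal of the stage means are carried by few independent deviations. Fos and Fosl2 were closest (Pearson r = 0.95, Spearman rho = 0.93, and r = 0.91 without the 2 farthest arrays), followed by Fos and Fosb (r = 0.90, rho = 0.92, and r = 0.83). The 2 farthest arrays are those of the gene named first in a pair, by distance from the median of its deviations. Outlying arrays of the other gene may remain. Among the 8 members other than Egr2 and Atf3, a division made after seeing the values, r was above 0 in 28 of 28 pairs, with a median of 0.70 and a range of 0.07 (Fosl1 and Jund) to 0.95. It was above 0 in 27 of 28 without the 2 farthest arrays of the first gene (Fosb and Fosl1 fell from 0.65 to 0.00). Without the epithelial-rich arrays (n = 7) it was above 0 in 27 of 28, where Jun and Jund had r = -0.14. Within the Jun family it was 0.80 for Jun and Junb, 0.59 for Junb and Jund and 0.35 for Jun and Jund. Of the 17 pairs with Egr2 or Atf3, 4 were above 0, and the lowest was Fosl2 with Egr2 (r = -0.84, rho = -0.82, and r = -0.57 without the 2 farthest arrays). Without the epithelial-rich arrays r was -0.34 for Fosl2 with Egr2 and -0.22 for Fos with Egr2, against -0.76 for the latter over 9 arrays. Egr2 and Atf3 themselves had r = 0.65, which was -0.27 without the 2 farthest arrays and 0.75 without the epithelial-rich arrays. This r thus depended on which arrays were kept. The 45 relations had a mean r of 0.31.

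**Figure D4:**
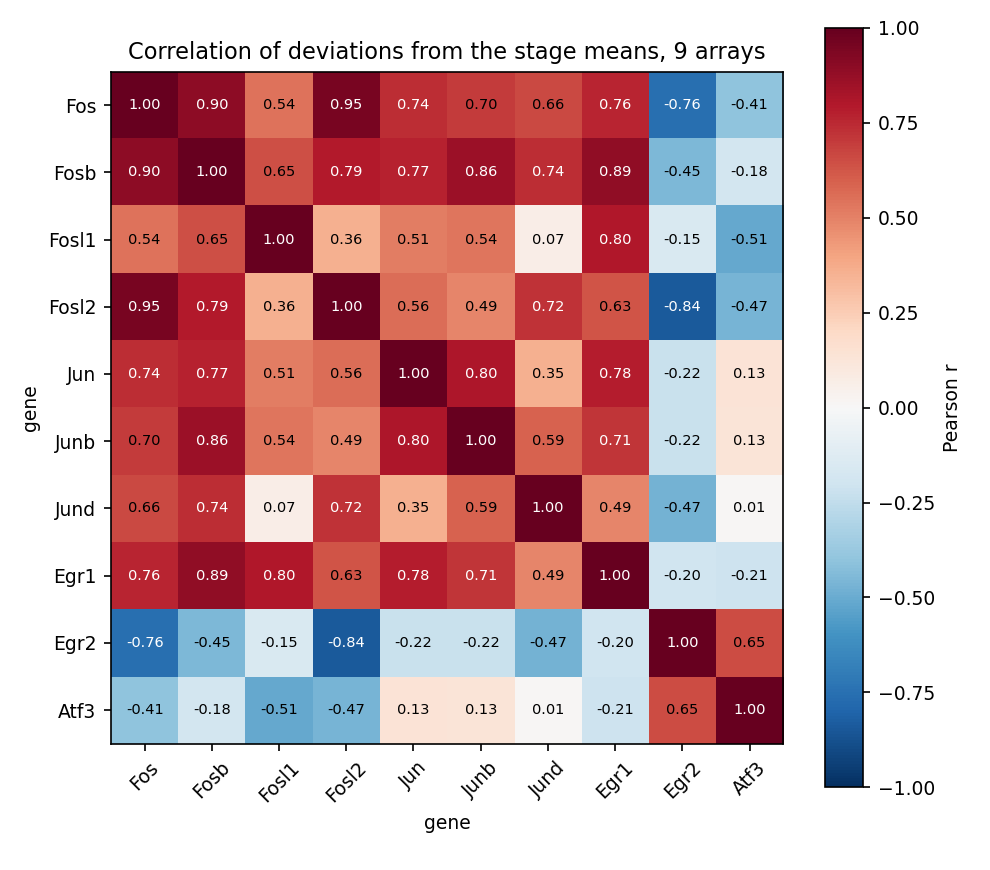
Pearson r between each pair of members (both axes list the 10 genes) of the deviations from the stage means over 9 arrays. The Fos and Jun families and Egr1 form a block of r from 0.07 to 0.95, and Egr2 has r of -0.76 with Fos and -0.84 with Fosl2.

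The opposite course of Egr2 and of Fos and Fosl2 moved with the epithelial and endothelial markers. Endothelial markers (7 of 7 measured) were also high in ASC-L 2 (7.17) and ASC-I 2 (6.50), as well as in ASC-N 1 (6.91), against 4.92 to 5.47 in the other 6 arrays. Over the 9 arrays, with stage means removed, the luminal marker mean had r = -0.90 with Fos (rho = -0.83), -0.92 with Fosl2 (rho = -0.87) and 0.91 with Egr2 (rho = 0.78). Without the 2 epithelial-rich arrays (n = 7), an alternative added after seeing the data, r was -0.79 for Fos, -0.68 for Fosl2 and 0.35 for Egr2. The endothelial marker mean had r = -0.76 with Fos, -0.71 with Fosl2 and 0.83 with Egr2 over 9 arrays, and -0.39, -0.08 and 0.50 without the same 2 arrays. The macrophage marker mean had r = -0.22 with Fos (rho = -0.28) and -0.84 with Fosl1 (rho = -0.92) over 9 arrays. Without the same 2 arrays it had r = -0.96 with Fos and -0.98 with Fosb. The fibroblast marker mean had r = 0.77 with Fos and 0.79 with Fosl2. The part of epithelial cells, endothelial cells and macrophages in the values of the members was not tested.

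The genes around the members in the same pathway were examined through 7 lists, of which 94 of 101 genes were measured. None of the 94 passed the limits for ASC-Ls against ASC-Ns, as 0.627% of all genes did. There 3 had an unadjusted p under 0.05 in limma, as did 3.64% of all genes. For ASC-Ls against ASC-Is and for ASC-Is against ASC-Ns 1 passed each (0.482% and 0.251% of all genes). Sik1, a kinase induced by cAMP that restrains CREB target genes, passed as lower in ASC-Ls against ASC-Is (-0.70, SE 0.27, limma adjusted p = 1.00). Its arrays overlapped, at 7.67, 8.23 and 7.50 against 8.74, 8.03 and 8.72, and it no longer passed without ASC-L 1, ASC-L 3, ASC-I 1 or ASC-I 3, each left out alone. Ier3, an early response gene that protects cells from apoptosis, passed as higher in ASC-Is against ASC-Ns (0.68, SE 0.23, limma adjusted p = 1.00). It measured 9.72, 9.88 and 10.01 in ASC-Is while ASC-Ns measured 9.0, 8.9 and 9.68, without overlap, and no longer passed without ASC-N 1, ASC-N 2 or ASC-I 3, each left out alone.

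By list, the signalling input comprised 15 measured genes of serum response factor, its cofactors and the MAP kinases. For ASC-Ls against ASC-Ns 8 were higher and 7 lower, with a median of 0.03, and Srf itself was at 0.17 (SE 0.24). Among 15 other bZIP factors, some of which can pair with FOS or JUN proteins, 6 were higher and 9 lower. Cebpd, a factor of the acute phase and of early adipogenesis, was at -0.33 (SE 0.58). Of the EGR family and its NAB corepressors, 1 of 4 was higher, and Nab2 was at -0.20 (SE 0.28). The 13 other immediate early factors had 5 higher and 8 lower, with a median of -0.10, and Nr4a1, an orphan nuclear receptor, was at -0.65 (SE 0.41) and overlapped. The 17 feedback inhibitors restrain the response, some of them by dephosphorylating kinases or destroying RNA. Of these 10 were lower, among them Dusp1 at -0.63 (SE 0.40) and Zfp36 at -0.60 (SE 0.35). Across all genes 48.3% were lower.

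Of the AP-1 target genes 10 of 14 were higher in the same comparison, with a median of 0.37, and none passed the limits. Mmp10, a stromelysin, measured 5.92, 6.0 and 7.21 in ASC-Ns and 5.64, 9.49 and 9.79 in ASC-Ls, a difference of 1.93 (SE 1.16) that arose in 2 of the 3 ASC-L arrays. Vegfd, a lymphatic growth factor also named Figf, was at -1.87 (SE 1.06), with ASC-Ls at 11.32, 6.73 and 9.52 and ASC-Ns at 10.96, 10.85 and 11.38. Its lowest array was ASC-L 2, where Fos was also lowest. Of the 16 secreted and other early response genes 10 were higher, with Lif, a cytokine of early involution, at 0.73 (SE 0.80) and Hbegf, an EGF receptor ligand, at 0.62 (SE 0.82). Hbegf measured 11.26 in ASC-L 2 and 10.55 in ASC-I 2, against 8.16 to 8.98 in the other 7 arrays.

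Against ASC-Is, 60 of the 94 list genes were lower in ASC-Ls (48.0% of all genes), including 13 of 17 feedback inhibitors, with Sik1 as the 1 that passed. With the replicate number as a block 7 of the 94 passed the limits, when 1.04% of all genes did. These were Cebpd (-0.71, SE 0.22), Nr4a1 (-0.72, SE 0.26), Dusp1 (-0.67, SE 0.29), Zfp36 (-0.65, SE 0.24), Nfkbia (-0.62, SE 0.27), Sik1 (-0.70, SE 0.28) and Vegfd (-1.74, SE 0.70). Nothing is read from this count, since the lists were written with earlier results known and the block assumed replicate effects shared with ASC-Ns. Zfp36, Cebpd, Dusp1 and Nr4a1 also followed Fos within stages (r of 0.95, 0.92, 0.92 and 0.90), so they do not count as independent genes. Between ASC-Is and ASC-Ns 59 of 94 were higher and 35 lower (49.1% of all genes were lower), with Il6 at 1.25 (SE 0.81) and Mmp9 at 1.02 (SE 1.05), neither past the limits.

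List genes differed in how closely they followed Fos within stages over the 9 arrays. The median r to Fos was 0.63 for the other immediate early factors, 0.59 for the other bZIP factors and 0.27 for the feedback inhibitors. It was -0.32 for the signalling input, -0.11 for the AP-1 targets and 0.13 for all genes. Among the genes chosen after their values were seen, Klf4, a zinc finger factor of quiescence, had r = 0.97 (rho = 0.98). It measured 8.46, 8.63 and 9.44 in ASC-Ns, 8.76, 7.72 and 9.18 in ASC-Ls and 8.96, 7.92 and 9.41 in ASC-Is, highest in replicate 3 of each stage and lowest of all in ASC-L 2 and ASC-I 2. Zfp36, which binds and destabilizes AU-rich RNAs, had r = 0.95, Cebpd 0.92, Dusp1, a phosphatase of MAP kinases, 0.92 and Socs3, an inhibitor of cytokine signalling, 0.92. Other feedback inhibitors ran against Fos, namely Spred1 (r = -0.87), Dusp6 (r = -0.79) and Dusp5 (r = -0.77). Srf had r = -0.83 and Myc, also an early response gene, -0.72. An r above 0.5 was found for 37 of the 94 list genes, or 39.4%, and for 27.7% of all genes.

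A search over the 9155 genes with an SD of at least 0.2 gave those whose 9 array values were most like the mean of the members. Zfp652 came first (r = 0.97, rho = 0.70), then Igfbp7 (r = 0.95), Clip1 (r = 0.95), Yipf2 (r = 0.94), Bsdc1 (r = 0.94) and Hsd17b11 (r = 0.93). Without the 2 farthest arrays r was 0.79, 0.86, 0.72, 0.86, 0.75 and 0.80 in the same order. Nearest to Fos were Dguok (r = 0.98) and Fuca1 (r = 0.98), and nearest to Fosb were Zfp652 and Susd6 (both r = 0.98). Nearest to Egr2 were Fam133b (r = 0.96) and Taf1a (r = 0.95). These are the extremes of a search over many genes and few arrays, and no shared control is read from them.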

How the data were processed

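RNA of mammary ASCs from 3 stages with 3 arrays each was hybridized to Affymetrix Mouse Gene 1.0 ST arrays. The deposited log2 values had been made by the authors, with robust multi-array average per the methods or with GCRMA and limma, no versions stated, per the submitters' notes, and the labels name Trizol where the methods name a column kit. Values were not normalized further. Of 28348 probe sets 21762 carried exactly 1 symbol (1621 several, 4965 none) and were averaged to 19930 genes. A linear model with a mean for each stage was fitted to all 9 arrays with limma 3.58.1 in R 4.3.3 (prior degrees of freedom 2.91). The filter of the authors on little variation was not applied to the deposited table, in which 23 probe sets had an SD under 0.05. With 3 arrays per stage, their number limits the precision. The script was tested on simulated data.

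The members, the gene lists, the cell type markers and the rule for named genes were chosen with earlier results of these data known. The rule takes all members, up to 4 genes per list past the limits or else the 2 with the largest change, and the genes nearest to the members by Pearson r. Of the 101 list genes, 94 were analysed and the rest are not reported here. Klf4 and other genes named for their r to Fos, and those named for the replicate block, were chosen after their values were seen.

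Replicate numbers are shared between stages in the labels. Deviations from the stage means correlated between arrays of the same number in every pair from lactation and involution (r of 0.47, 0.73 and 0.46). From lactation and nulliparous glands r was -0.08, 0.40 and 0.45, and from involution and nulliparous glands 0.07, 0.43 and 0.50. Pair differences were therefore given only for ASC-Ls against ASC-Is. The replicate block, however, was fitted to the arrays of all stages together. It thus assumed replicate effects shared with ASC-Ns, which the r of -0.08 and 0.07 did not show for replicate 1. Blocked SEs and counts for ASC-Ls against ASC-Is rest in part on the ASC-N arrays. Alternatives were single probe sets, array weights, a trended robust prior, a fit of the compared stages alone, quantile and cyclic loess normalization, filters on dim or invariant genes, the replicate block and leaving out arrays.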

Additional observations from a re-analysis of the deposited data

How the results depend on the processing

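With 3 arrays per stage, counts past the limits moved with single arrays. Genes past the limits numbered 125 for ASC-Ls against ASC-Ns, 96 for ASC-Ls against ASC-Is and 50 for ASC-Is against ASC-Ns. With the replicate block they numbered 295, 207 and 90. Array weights gave 311 for the first and 187 for the last, and omission of the epithelial-rich arrays, ASC-L 2 and ASC-I 2, gave 194 for the second and 144 for the last. Leaving out each array in turn gave 80 (without ASC-N 1) to 404 (without ASC-L 1), 36 (without ASC-I 1) to 331 (without ASC-L 1) and 32 (without ASC-N 1) to 221 (without ASC-N 3). An adjusted p under 0.05 was reached by 0 genes in these fits.

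Members past the limits, a description and not a test of them, numbered 0 in each comparison. With the replicate block there were 1 (Fos) against ASC-Ns and 2 (Fos and Fosb) against ASC-Is, and without the epithelial-rich arrays there was 1 (Egr2) in each. Leaving out each array in turn gave 0 to 1 in both comparisons, and 0 between ASC-Is and ASC-Ns. The block against ASC-Ns is a fit by number only, since not every pair of those stages deviated together. The log2 differences of the members stayed within 1 SD of the replicates under all 19 alternatives, but nothing is read from this. Leaving out 1 of 3 arrays cannot move a difference past that limit, and several alternatives leave the difference unchanged by construction. The sign changed under at least 1 alternative for 5, 6 and 7 of the 10 members in the 3 comparisons.

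List genes past the limits numbered 0, 1 and 1. For ASC-Ls against ASC-Ns there was 1 with only the stages compared (Zfp36) and 1 each with array weights, quantile normalization and cyclic loess (Ier3 each time). There were 4 with the block, 2 without the epithelial-rich arrays and 0 to 8 without each array in turn. For ASC-Ls against ASC-Is there were 7 with the block, 3 without both arrays and 0 to 6 without each in turn. For ASC-Is against ASC-Ns there were 3 with array weights, 2 without both arrays and 0 to 7 without each in turn. The cause of these shifts was not tested. The mean r between members was 0.31 and ranged from 0.24 to 0.39 under its alternatives, and the 8 motif matches all lay on the strand of the gene.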

Other observations

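Some secreted factors of the lists followed the replicate number. Ccl2, a chemokine for monocytes, measured 12.23 in ASC-N 3, 12.21 in ASC-L 3 and 12.01 in ASC-I 3, against 9.57 to 10.88 in the other 6 arrays. Cxcl1, a chemokine for neutrophils, measured 10.99, 10.75 and 10.97 in the same 3 arrays, against 8.18 to 9.64 in the others. Replicate 3 was thus separate from the other replicates in every stage for both chemokines. Another order of arrays was seen for Mmp13, a collagenase, which measured 10.86 in ASC-L 2, 11.26 in ASC-L 3 and 10.31 in ASC-I 2, against 6.46 to 9.12 in the other 6 arrays. These genes were chosen after their values were seen.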
